A study of Zea mays with 30 samples.

Results

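Heat shock protein genes were examined in the shoot apical meristem (SAM) of maize *narrow sheath* (*ns*) seedlings, whose leaves form without their margins. Probes were taken where the annotated gene has a symbol or synonym that starts with hsp and a digit, or with hsf and a digit or letter. This gave 47 of the 49280 probes on 3 cDNA chips, with 27 on SAM 1.1, 7 on SAM 2.0 and 13 on SAM 3.0. They belong to 7 of the 866 genes that probes name. Only 3845 probes carry 1 named gene, so heat shock genes among the unnamed probes were not analysed here.

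RNA from laser-microdissected SAMs of *ns* mutant seedlings (*ns1-R*, *ns2-R*) was compared with RNA from nonmutant seedlings of the same line (*Ns1*/*ns1-R*, *ns2-R*), harvested 2 weeks after germination. Both genotypes are homozygous for *ns2-R*, so the comparison addresses the *ns1* locus only. Each chip had 6 biological replicates of pooled SAMs, with *ns* and nonmutant RNA hybridised to the same array in Cy3 and Cy5 and the dyes swapped on 3 of the 6 arrays. Each RNA sample had been amplified in 2 rounds. The signal of the median spot on an array was 8.95 to 14.5 times its local background for SAM 1.1, 4.30 to 15.5 times for SAM 2.0 and 6.59 to 28.9 times for SAM 3.0. The SAM marker *kn1*, a homeobox gene of meristem cells, had probes on all 3 chips, and in *ns* RNA the 7 probes of the fixed meristem list on SAM 1.1 had a median signal over background of 11.5, against 11 in nonmutant RNA. The endosperm and leaf lists had medians of 21.7 and 10.1 in *ns* RNA and 17 and 8.18 in nonmutant RNA on the same chip. Most of their probes there were of a single gene each, *sh1* and *pep7*, so the medians describe these genes more than the tissues. Of the other endosperm genes there, *zp27* was near background, at 2.31 in *ns* and 2.11 in nonmutant RNA. The endosperm genes *o2* and *bt2* were higher, at 8.83 and 10.2 in *ns* RNA and 7.56 and 10.1 in nonmutant RNA. Leaf *rbcS* was at 2.14 and 1.87 (probe 9535) and at 14.4 and 13.2 (probe 16448). Leaf *lhcb5* was at 69.2 and 58.3 (probe 14324) and at 10.8 and 9.47 (probe 17293). *Cab-m7* was at 8.98 and 7.63, and *Lhcb5-2* at 4.68 and 3.44. The part of such transcripts in the heat shock signals was not tested.

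Heat shock proteins are molecular chaperones. Heat shock transcription factors switch on their genes when proteins unfold, and many of them are also made without stress, where they fold new polypeptides and carry them to organelles. HSP70 proteins bind short unfolded stretches of a client in cycles of ATP hydrolysis. HSP60 (chaperonin 60) forms a barrel in which a protein folds, HSP101 (ClpB) threads proteins out of aggregates and is needed for heat tolerance in maize, and small heat shock proteins hold unfolding proteins until the other classes refold them. Small heat shock genes and *hsp101* are strongly heat induced in plants, whereas HSP60 and many HSP70 genes are active in growing tissue.

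HSP70 was the class with the most probes, 25 in all. Of these, 16 are annotated as *hsp70-4* and 9 as *hsp70-5*; the identifiers of both genes are not among those of the maize gene table used for the other members, and the names are those of the chip annotation. Small heat shock proteins had 10 probes, of *hsp18a* (7 probes), *hsp22* (2 probes) and *hsp18f* (1 probe). The gene *hsp101* had 7 probes and *HSP60-1* had 5. The gene table lists 25 heat shock genes, among them 3 HSP90 genes and 11 heat shock factor genes, and neither class had a named probe here, so HSP90 could not be compared. HSP70 was on SAM 1.1 and SAM 3.0, HSP60 and HSP101 were on SAM 2.0 and SAM 3.0, and small heat shock proteins were on all 3 chips.

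Signal differed among the classes by more than an order of magnitude, with most HSP70 and HSP60 spots bright and most small heat shock spots near background. Signal over background is the mean signal of a spot divided by its local background, before normalization, averaged on the log scale over the 6 arrays. On SAM 1.1 the median of 22 HSP70 probes was 61.0 in *ns* RNA and 53.9 in nonmutant RNA, and the median of 5 small heat shock probes was 2.50 in *ns* RNA and 2.35 in nonmutant RNA, against 12.4 and 10.7 for all probes of that chip. The brightest member was *hsp70-4* probe 12553, at 163.0 in *ns* RNA and 114.7 in nonmutant RNA. Its signal reached the limit of the scanner on 2 arrays, and *hsp70-4* probes 4575, 7677 and 13653 did so on 1 array each. By rank among all spots of SAM 1.1, the HSP70 probes ran from the 49.2th to the 98.2th percentile.

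On SAM 2.0 the *HSP60-1* probes 5131 and 11508 stood at 58.7 and 50.1 times background in *ns* RNA and at 56.1 and 50.4 times in nonmutant RNA. Another *HSP60-1* probe on that chip, 13705, was at 1.56 in *ns* RNA and 1.54 in nonmutant RNA, at the 7.34th percentile. The *hsp101* probes were intermediate, from 5.20 to 11.8 in *ns* RNA and from 5.96 to 12.6 in nonmutant RNA. The single *hsp18f* probe was close to background, at 1.47 in *ns* RNA and 1.46 in nonmutant RNA. On SAM 3.0 the class medians were 44.3 for HSP60, 27.6 for HSP70, 4.22 for HSP101 and 2.91 for small heat shock proteins in *ns* RNA, and 41.6, 30.04, 4.27 and 3.47 for the same classes in nonmutant RNA. The order of the 4 class medians was thus the same in both genotypes, but it did not hold probe by probe. The *hsp101* probe 14902 was at 31.2 in *ns* RNA and 37.3 in nonmutant RNA, above *HSP60-1* probe 12249 (27.8 and 26.3). The HSP101 median also includes dim spots of repeated ESTs, probes 528 and 2911, at 2.31 and 2.33 in *ns* RNA. Among small heat shock probes, *hsp22* probe 15762 on SAM 1.1 was the brightest, at 14.9 in *ns* RNA and 11 in nonmutant RNA, while the other *hsp22* probe, 664, was at 1.84 in *ns* RNA and 1.81 in nonmutant RNA and lay at or below its background on 1 array.

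**Figure D1:**
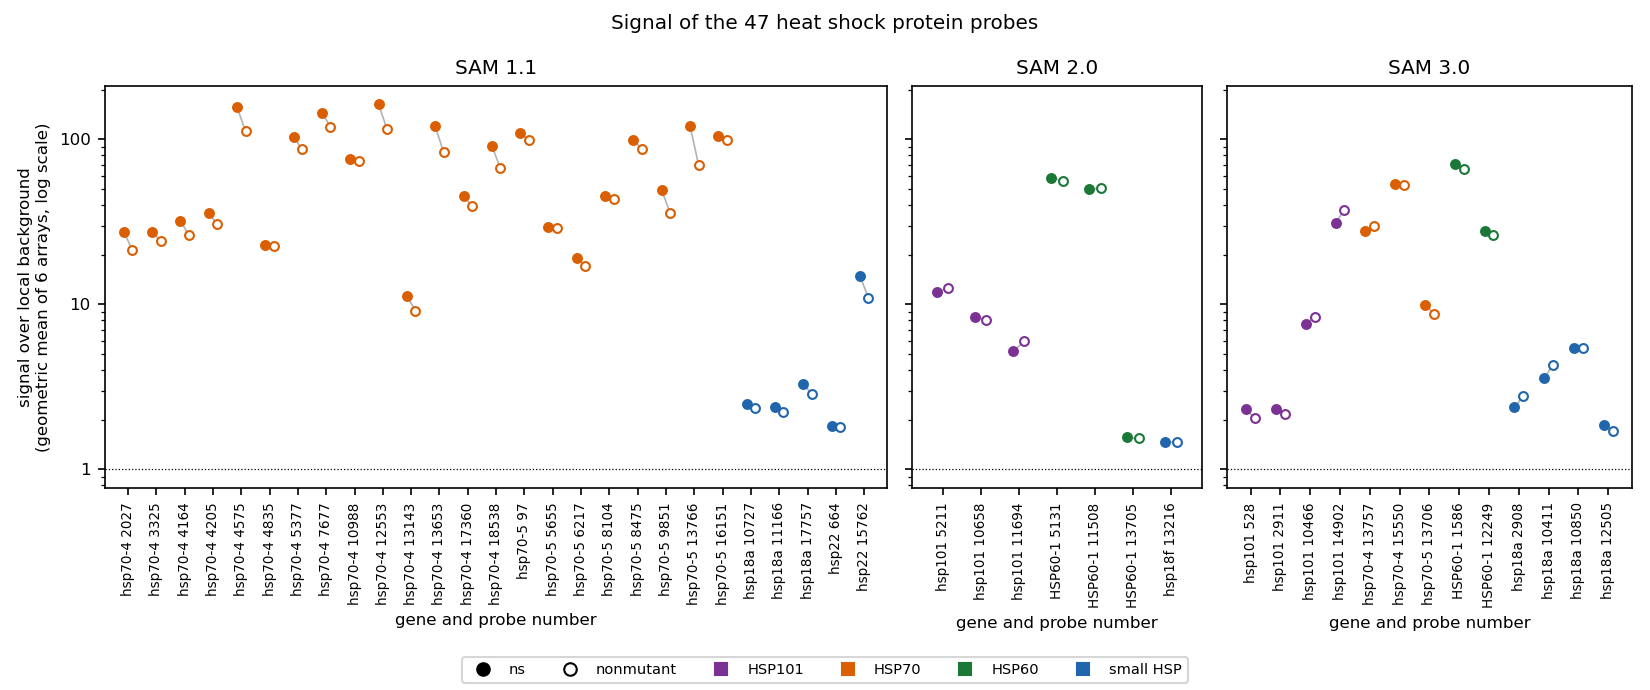
Signal over local background (log axis) of each of the 47 heat shock protein probes, by chip and class, as the geometric mean of 6 arrays for ns RNA (filled) and nonmutant RNA (open); the dotted line is a signal equal to background. HSP70 probes lie above the small heat shock probes of their chip, except that hsp22 probe 15762 lies above hsp70-4 probe 13143 on SAM 1.1. Signals are not normalized between channels, and on SAM 1.1 the ns points lie above the nonmutant ones, as at hsp70-5 probe 13766 (121 against 70.1). In replicate 3 that probe was at 4000.5 in ns RNA and 25.6 in nonmutant RNA. Its medians over the 6 arrays had the opposite order, 73.7 in ns RNA and 98.8 in nonmutant RNA.

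These signals rank spots and are not transcript levels. Spots listed under the same expressed sequence tag (EST) show how far they can differ. EST DN220876 of *hsp101* was at 2 spots of SAM 3.0, and probe 14902 was 13.5 times as bright over background as probe 528 in *ns* RNA and 18.3 times in nonmutant RNA. It was the brighter of the pair on 6 of 6 arrays, by 9.30 to 17.1 times in *ns* RNA and by 11.5 to 31.7 times in nonmutant RNA. EST BG841056, also of *hsp101*, gave 7.64 and 2.33 times background in *ns* RNA at probes 10466 and 2911 of SAM 3.0, and 8.39 and 2.17 times in nonmutant RNA. The same EST on SAM 2.0, probe 10658, gave 8.42 in *ns* RNA and 8.0 in nonmutant RNA. EST BM080630 of *hsp18a* gave 3.56 and 1.86 in *ns* RNA at probes 10411 and 12505 of SAM 3.0, and 4.31 and 1.72 in nonmutant RNA. For BG841056 and BM080630 the brighter spot was so in both channels on 5 of 6 arrays. The ratios of *ns* over nonmutant RNA at such pairs are given with each gene.

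**Figure D2:**
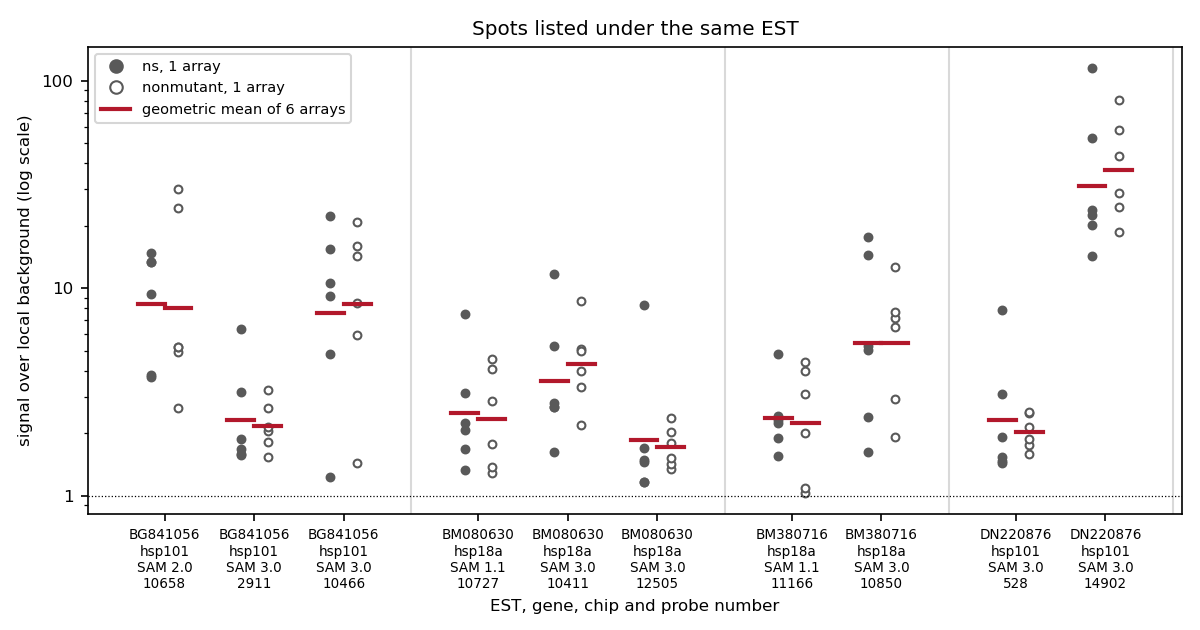
Signal over local background (log axis) on each of 6 arrays, for ns RNA (filled) and nonmutant RNA (open), of the 10 spots that share an EST with another heat shock spot; red bars are geometric means. Probes 528 and 14902, both listed under DN220876, do not overlap, whereas the spots of BM380716 on SAM 1.1 and SAM 3.0 do.

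No heat shock protein probe differed between *ns* and nonmutant SAMs at an adjusted *p*-value under 0.05 in limma's test, with 0 of 27 on SAM 1.1, 0 of 7 on SAM 2.0 and 0 of 13 on SAM 3.0. Over all probes, 0.0104% of SAM 1.1, 0.0355% of SAM 2.0 and 0.0125% of SAM 3.0 were called. At an unadjusted *p*-value under 0.05 there were 2 probes on SAM 1.1 (5.18% of all probes of that chip), 0 on SAM 2.0 (6.48%) and 0 on SAM 3.0 (5.19%). The lowest adjusted *p*-values in limma's test were 0.83 among SAM 1.1 members, 0.875 among SAM 2.0 members and 0.879 among SAM 3.0 members.

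Estimated ratios were small in every class. Ratios are given as log2 of *ns* over nonmutant from the fit, so that a negative value is lower in *ns*. Their errors are limma's moderated standard errors unless stated otherwise. These combine the spread of the 6 arrays with that of all spots of the chip, so they can differ from a probe's own standard error. The lowest and highest were -0.27 and 0.20 among SAM 1.1 members, -0.07 and 0.16 among SAM 2.0 members and -0.17 and 0.08 among SAM 3.0 members. All 47 of the 95% intervals, not adjusted for the number of probes, lay within a 1.5-fold change in either direction, and the widest limits were 0.698-fold (*hsp70-5* probe 5655) and 1.41-fold (*hsp101* probe 10658). An offset added to every signal before the logarithm draws ratios of dim spots toward 0, which bears on the small heat shock probes most. Fewer intervals lay within 1.5-fold on the 3 chips when background was only subtracted (23, 6 and 13), with the authors' values (22, 5 and 13), with the methods' t-test (23, 4 and 13) and with channels taken as separate samples (10, 4 and 4). Ratios above 0 were found for 9 of 27 probes on SAM 1.1 (45.6% of all probes), 3 of 7 on SAM 2.0 (50.9%) and 5 of 13 on SAM 3.0 (49.6%). Set against the probes of similar brightness on their chip, 45 of the 47 fell between the 5th and the 95th percentile of the ratio, a range that holds 90% of all probes by construction.

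**Figure D3:**
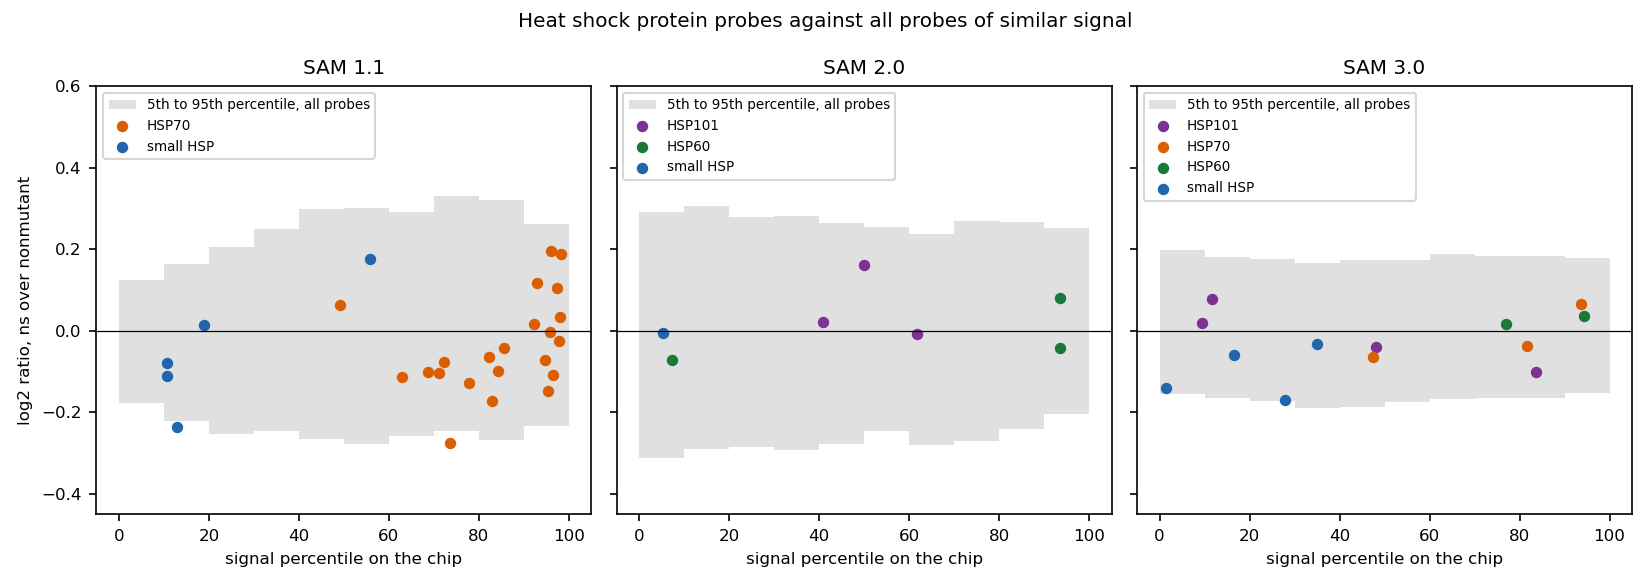
Log2 ratio of ns over nonmutant against the percentile of a probe's signal on its chip; points are heat shock protein probes and the grey steps span the 5th to 95th percentile of all probes in each of 10 equal bins of signal. On SAM 1.1, 2 probes, 1 of HSP70 and 1 of a small heat shock protein, lie under the grey range, and no probe lies over it on any chip.

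Class medians ran from -0.10 to 0.03, and those of whole chips from -0.02 to 0.004. For HSP70 the median ratio was -0.07 on SAM 1.1 (22 probes, 7 above 0) and -0.04 on SAM 3.0 (3 probes, 1 above 0). For small heat shock proteins it was -0.08 on SAM 1.1 (5 probes, 2 above 0), -0.01 on SAM 2.0 (1 probe) and -0.10 on SAM 3.0 (4 probes, 0 above 0). For HSP60 it was -0.04 on SAM 2.0 (3 probes, 1 above 0) and 0.03 on SAM 3.0 (2 probes, both above 0), and for HSP101 it was 0.02 on SAM 2.0 (3 probes, 2 above 0) and -0.01 on SAM 3.0 (4 probes, 2 above 0). All SAM 1.1 probes had a median of -0.02, all SAM 2.0 probes one of 0.004 and all SAM 3.0 probes one of -0.001. The largest class median, that of small heat shock proteins on SAM 3.0, rested on 4 *hsp18a* probes. With the dye effect removed, their median on single arrays was below 0 on 6 of 6, from -0.24 to -0.003.

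**Figure D4:**
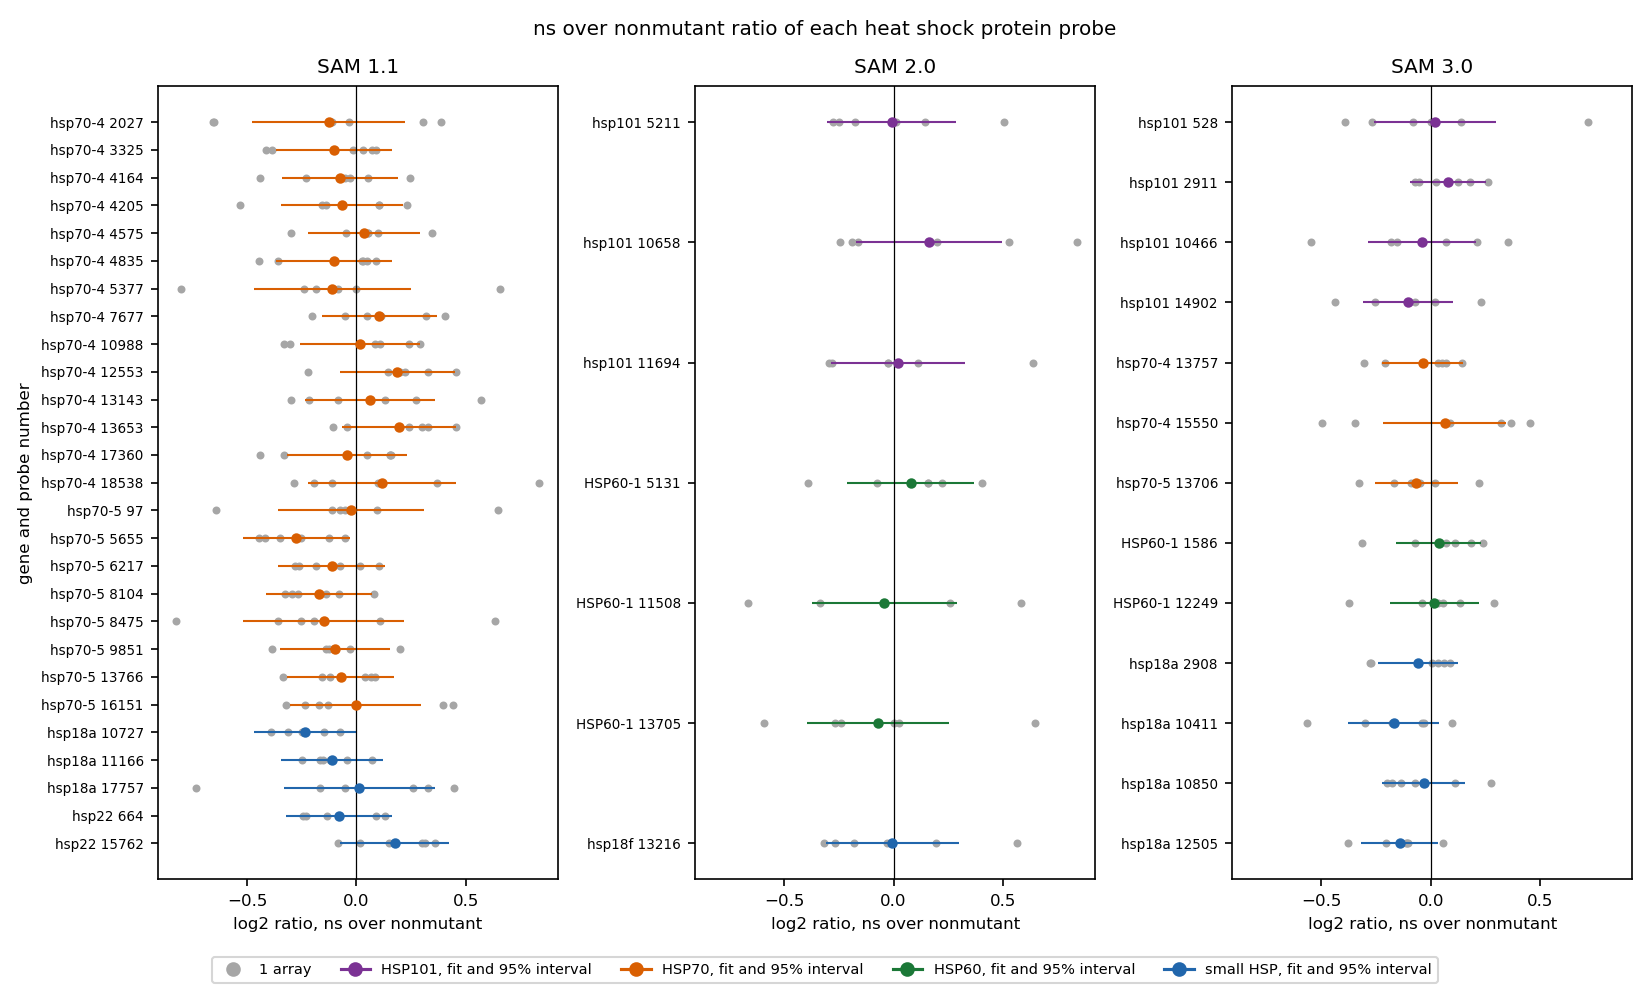
Log2 ratio of ns over nonmutant for each heat shock protein probe by chip; grey points are single arrays with the fitted dye effect removed, coloured points and lines are the fitted ratio and its unadjusted 95% interval. Intervals of 45 probes cross 0; those of hsp70-5 probe 5655 and hsp18a probe 10727 on SAM 1.1 end just below it.

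By their names in the chip annotation, *hsp70-4* and *hsp70-5* encode HSP70 chaperones. On SAM 1.1 the 8 *hsp70-5* probes all had ratios below 0, from -0.27 to -0.004, while 7 of the 14 *hsp70-4* probes were above 0, from -0.13 to 0.20. The split was similar but not the same under other scalings. With median centring in place of loess, 2 of 8 *hsp70-5* probes were above 0, and with no background correction or plain subtraction 1 of 8 was. The split also depended on single arrays. Of the *hsp70-4* probes, 4 of 14 were above 0 without replicate 3 and 11 of 14 without replicate 5. Of the *hsp70-5* probes, 2 of 8 were above 0 without replicate 1 and likewise without replicate 5. With the probes of a gene averaged, *hsp70-5* had array values of -0.06, -0.08, -0.01, -0.29, -0.27 and 0.03 in replicates 1 to 6, and a ratio of -0.11 ± 0.11 (adjusted *p* = 0.851, limma). Its values were below 0 on 5 of 6 arrays. The same mean for *hsp70-4* was 0.13, 0.10, 0.18, -0.14, -0.29 and 0.06, with a ratio of 0.01 ± 0.11 (adjusted *p* = 0.992, limma). Both genes were lowest in replicates 4 and 5. The 95% intervals of the 2 genes overlapped widely, from 0.784-fold to 1.09-fold for *hsp70-5* and from 0.845-fold to 1.19-fold for *hsp70-4*. Because cDNA spots can bind transcripts of close relatives, values of the HSP70 probes may not separate these genes.

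Probe 5655 of *hsp70-5* (ESTs CB351567 and CB351566) had the largest ratio among all members. Its values on the 6 arrays, with the dye effect taken out, were -0.12, -0.42, -0.45, -0.35, -0.25 and -0.05 on the log2 scale, all below 0. The fitted ratio was -0.27 ± 0.11, or 0.827-fold, with an unadjusted *p*-value of 0.0305 and an adjusted *p*-value of 0.83 (limma). Its dye effect of 0.42 (log2 of Cy5 over Cy3) was larger than its ratio, so that before the dye effect was removed the ratio was below 0 on the 3 arrays with *ns* RNA in Cy3 and above 0 on the 3 arrays with *ns* RNA in Cy5. Its signal over background ran from 12.7 to 208 in *ns* RNA (median 21.9) and from 11.6 to 52.8 in nonmutant RNA (median 32.2). Values of 1 sign on all 6 arrays, with the dye effect removed, were found for 2 of 27 members on SAM 1.1 (5.59% of all its probes), 0 of 7 on SAM 2.0 (5.34%) and 0 of 13 on SAM 3.0 (5.27%).

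On SAM 3.0 the largest HSP70 ratio was that of *hsp70-5* probe 13706 (EST DN222096). Its array values were -0.09, -0.05, 0.22, 0.02, -0.17 and -0.33, on both sides of 0. The fitted ratio was -0.07 ± 0.09 (adjusted *p* = 0.927, limma). Of the *hsp70-4* probes on that chip, 15550 was at 0.06 ± 0.13 and 13757 at -0.04 ± 0.09.

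Some HSP70 probes of SAM 1.1 varied widely between arrays, and probes of different gene names could vary more alike than probes of 1 name. Probe 5377 of *hsp70-4* and probe 8475 of *hsp70-5* were at 0.66 and 0.63 in replicate 1, at -0.18 and -0.25 in replicate 3 and at -0.80 and -0.82 in replicate 5. Probe 2027 of *hsp70-4* and probe 97 of *hsp70-5* were at -0.66 and -0.64 in replicate 1, at 0.39 and 0.65 in replicate 3 and at -0.11 and -0.08 in replicate 5. The 2 pairs were thus on opposite sides of 0 in replicates 1 and 3, while all 4 probes were below 0 in replicates 4 and 5. These 4 probes had SDs between arrays that lay at the 84.2th percentile of all spots of the chip or higher, whereas the median HSP70 probe, with an SD of 0.24, ranked at the 38.6th percentile. They were chosen after their values were seen.

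Small heat shock proteins were represented mainly by *hsp18a*, a member of the hsp20 family. Of its 7 probes, 6 had ratios below 0, of which none passed the adjusted threshold. Probe 10727 on SAM 1.1 (EST BM080630) had array values of -0.08, -0.25, -0.39, -0.31, -0.24 and -0.15, all below 0 with the dye effect taken out. Its dye effect was -0.24 (log2 of Cy5 over Cy3), and before this was removed the ratio was above 0 in replicate 1, at 0.16. The fitted ratio was -0.24 ± 0.11, or 0.849-fold, with an unadjusted *p*-value of 0.0482 and an adjusted *p*-value of 0.83 (limma). The spot was dim, at 1.33 to 7.53 times background in *ns* RNA (median 2.16) and 1.29 to 4.59 times in nonmutant RNA (median 2.32). The same EST on SAM 3.0 gave -0.17 ± 0.10 at probe 10411 and -0.14 ± 0.08 at probe 12505, both with an adjusted *p*-value of 0.879 (limma).

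Probe 10411, which had the largest small heat shock ratio of SAM 3.0, had array values of -0.03, 0.10, -0.18, -0.56, -0.04 and -0.30. It was below 0 on 5 of 6 arrays, with replicate 4 the lowest. Probe 12505 was the only member of any chip whose ratio had 1 sign on all 6 arrays before the dye effect was removed, being below 0 on 6 of 6. Such ratios of 1 sign were thus found for 0 of 27, 0 of 7 and 1 of 13 members, and for 1.79%, 2.55% and 2.60% of all probes of the 3 chips. EST BM380716, the other *hsp18a* sequence on both chips, gave -0.11 ± 0.11 at probe 11166 of SAM 1.1 and -0.03 ± 0.09 at probe 10850 of SAM 3.0. The remaining *hsp18a* probes were 17757 on SAM 1.1, at 0.01 ± 0.16, and 2908 on SAM 3.0, at -0.06 ± 0.08.

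Averaged over its 4 probes on SAM 3.0, *hsp18a* was at -0.04, -0.01, -0.05, -0.27, -0.02 and -0.22 in replicates 1 to 6. These values, with the dye effect removed, were below 0 on 6 of 6 arrays, and 5.27% of all single probes of the chip had 1 sign on 6 arrays. Before the dye effect was removed, the median of the 4 probes was above 0 in replicate 3, at 0.09. The ratio was -0.10 ± 0.08 (adjusted *p* = 0.883, limma; 95% interval 0.83-fold to 1.05-fold). On SAM 1.1 the mean of its 3 probes was below 0 on 4 of 6 arrays, with a ratio of -0.11 ± 0.11 (adjusted *p* = 0.858, limma). The 4 SAM 3.0 probes stayed below 0 in all 4 alternatives of background and scaling run on these signals, namely plain subtraction, no correction, median centring and scaling between arrays, and 1 of the 4 was above 0 without replicate 1, without replicate 6, and in the low or mid scan alone.

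The other small heat shock genes had ratios on both sides of 0. *hsp22* is a small heat shock protein gene whose probe 15762 was at 0.17 ± 0.11 (above 0 on 5 of 6 arrays) and whose probe 664 was at -0.08 ± 0.11 (above 0 on 2 of 6), both on SAM 1.1. With the authors' values both *hsp22* probes were above 0, with a median of 0.54. *hsp18f*, at probe 13216 of SAM 2.0 (EST BI361048), had array values of 0.19, -0.27, -0.18, -0.32, -0.03 and 0.57. Replicate 6 was the highest, and the fitted ratio was -0.01 ± 0.14 (adjusted *p* = 0.997, limma).

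*HSP60-1*, also named *CPN60I*, encodes a chaperonin 60 and was bright at 4 of its 5 probes. Its largest ratio on SAM 2.0 was that of probe 5131 (EST BG462406), with array values of 0.41, -0.07, -0.39, 0.16, 0.22 and 0.16. The fitted ratio was 0.08 ± 0.14 (adjusted *p* = 0.946, limma), or 1.06-fold. On SAM 3.0 probe 1586 (EST DN215007) had array values of 0.24, -0.07, -0.31, 0.11, 0.07 and 0.19 and a ratio of 0.04 ± 0.09 (adjusted *p* = 0.961, limma). Both probes were lowest in replicate 3 and highest in replicate 1 of their chip. The other bright probes were at -0.04 ± 0.16 (11508, SAM 2.0) and 0.02 ± 0.09 (12249, SAM 3.0) and were lowest in replicate 3 too, at -0.67 and -0.37. The mean of its SAM 2.0 probes was -0.01 ± 0.14 (95% interval 0.814-fold to 1.21-fold) and that of its SAM 3.0 probes 0.03 ± 0.09 (0.888-fold to 1.17-fold). The study describes 6 biological replicates, with 3 of the 6 pairs in each dye orientation on every chip type. Arrays of different chips thus appear to carry RNA of the same pairs and are not counted as independent. Whether a replicate number marks the same pair on each chip was not settled here.

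*hsp101*, the disaggregase gene, had its largest ratio on SAM 2.0 at probe 10658 (EST BG841056). The array values were 0.20, 0.84, 0.53, -0.19, -0.24 and -0.16, with replicates 1 to 3 above 0 and replicates 4 to 6 below it. The fitted ratio was 0.16 ± 0.16 (adjusted *p* = 0.875, limma), and without replicate 2 it was -0.01. Replicate 2 was also the highest array of the other *hsp101* probes on that chip, at 0.50 (5211) and 0.64 (11694), and their fitted ratios were -0.01 ± 0.14 and 0.02 ± 0.14. EST BG841056 on SAM 3.0 gave 0.08 ± 0.08 at probe 2911 and -0.04 ± 0.11 at probe 10466.

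On SAM 3.0 the largest *hsp101* ratio was that of probe 14902 (EST DN220876), with array values of -0.25, 0.23, 0.02, -0.10, -0.44 and -0.07. The fitted ratio was -0.10 ± 0.09 (adjusted *p* = 0.909, limma). Its dim partner of the same EST, probe 528, was at 0.02 ± 0.13, and it was at 0.72 in replicate 5, the array in which probe 14902 was lowest. Over its 3 SAM 2.0 probes the gene averaged 0.06 ± 0.15 (adjusted *p* = 0.968, limma), but without replicate 2 none of the 3 probes was above 0 and their median was -0.13. Over its 4 SAM 3.0 probes it averaged -0.01 ± 0.08 (adjusted *p* = 0.991, limma).

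**Figure D5:**
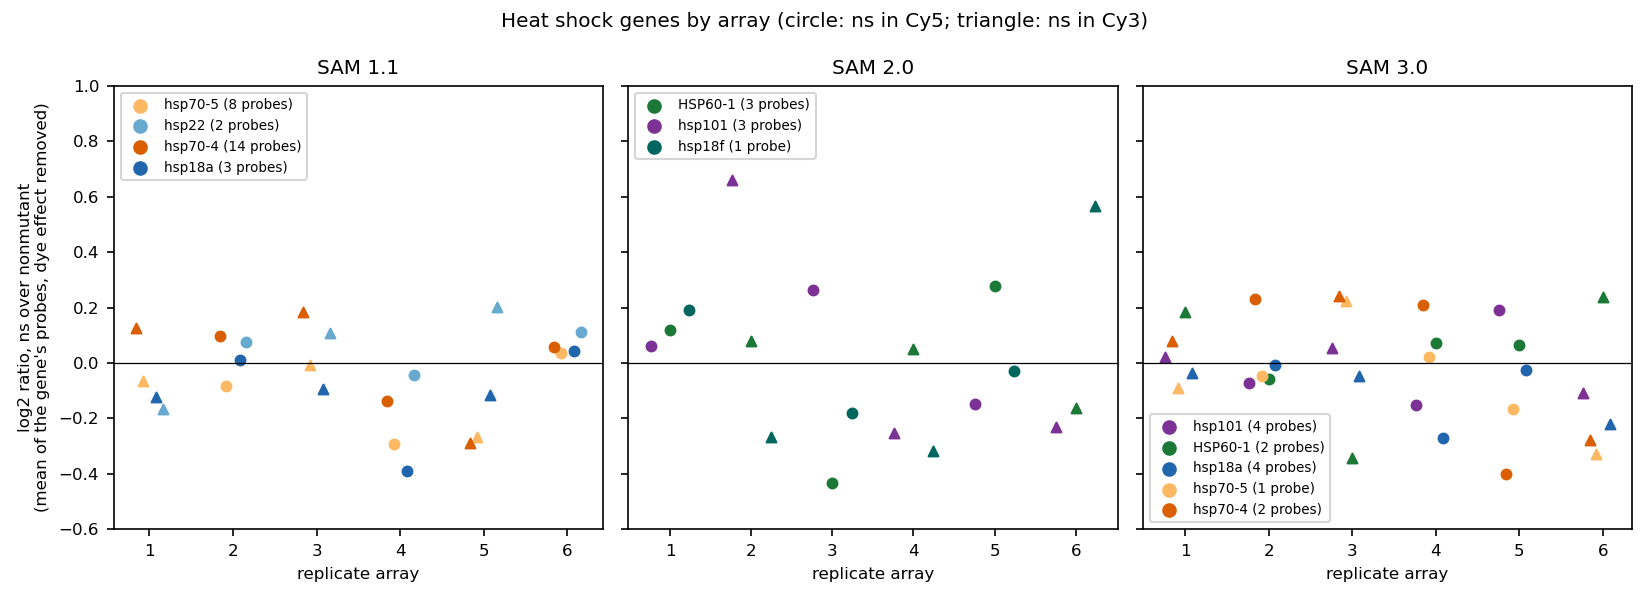
Log2 ratio of ns over nonmutant of each heat shock gene on each of the 6 arrays of a chip, as the mean of the gene's probes with the dye effect removed; circles are arrays with ns RNA in Cy5 and triangles those with ns RNA in Cy3. hsp18a lies below 0 on all 6 arrays of SAM 3.0, hsp101 of SAM 2.0 is highest in replicate 2, and HSP60-1 is lowest in replicate 3 of both its chips.

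Genes of neighbouring stress and folding pathways, taken from lists fixed by symbol, also had no probe at an adjusted *p*-value under 0.05 (limma). Among endoplasmic reticulum chaperones (calnexin, calreticulin, BiP and protein disulfide isomerases), 1 of 37 probes was higher in *ns* and 2 lower at an unadjusted *p*-value under 0.05 on SAM 1.1, 0 higher and 1 lower of 17 on SAM 2.0, and 0 higher and 1 lower of 19 on SAM 3.0. The lower probes on SAM 1.1 and SAM 2.0 (3759, 8179 and 9806) are all annotated as the calnexin gene *CNX* and are not independent of each other. The 4 probes of *CPNB*, a second chaperonin 60 gene also named *CPN60II*, passed the unadjusted threshold in neither direction. Glutathione transferases had 0 higher and 2 lower of 27, 1 higher and 1 lower of 15, and 1 higher and 0 lower of 17 on the 3 chips. Antioxidant enzymes had 1 higher and 8 lower of 48 on SAM 1.1, 0 higher and 1 lower of 14 on SAM 2.0, and 0 higher and 11 lower of 44 on SAM 3.0, where 2.26%, 3.21% and 2.57% of all probes were higher and 2.92%, 3.27% and 2.62% lower. Most of these lower antioxidant probes are annotated as the same gene, the superoxide dismutase *Sod4A*, and are not independent of each other.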

How the data were processed

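The authors deposited, for each array, the intensity of every spot and its local background in Cy3 and Cy5, together with natural log values of both channels that they had background-subtracted, LOWESS-normalized and centred. The deposited tables of the whole series repeat the natural log ratios and were not used. Intensities were corrected by normexp (offset 50) and normalized by loess (span 0.3), with both channels then centred by their medians. The 3 scans of a SAM 3.0 array were averaged. A model with dye and *ns* effects, as in the study's methods, was fitted with lmFit and eBayes (limma 3.58.1, R 4.3.3) to all spots of a chip, with Benjamini-Hochberg adjustment within the chip. The array pairs *ns* with nonmutant RNA, and a *p*-value reflects the spread between 6 arrays, moderated by that of all spots of the chip. The procedure was tested on simulated data.

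Genes were named from the chip annotation and a maize gene table (Zm-B73-REFERENCE-NAM-5.0). A further SAM 1.1 probe, 2958, which lists *HSP60-1* and another gene, was left out. Array values are given in full for the probe with the largest ratio of a class on each chip and for probes at an unadjusted *p*-value under 0.05. Members and lists were chosen with earlier results of these data known. Alternatives included other background corrections and scalings, the authors' values, the methods' t-test, single scans and leaving out each replicate.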

Additional observations from a re-analysis of the deposited data

Results flagged for a closer look

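None of the 47 heat shock protein probes had an array that stood apart from the other 5 by the gap between it and its nearest neighbour, as a share of the range of the 6 arrays. The largest such share was 0.564, under Dixon's 95% limit for 6 values.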

How the results depend on the processing

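The count of heat shock probes called stayed at 0 on each chip under every alternative run, 17 on SAM 1.1 and SAM 2.0 and 20 on SAM 3.0. This includes a fit with no replicate block, in which the channels were taken as separate samples (0, 0 and 0 probes), and the methods' t-test. Without replicate 1, 405 probes of SAM 1.1 were called over the whole chip, against 2 with all arrays, and no member was among them. The median ratio of small heat shock probes on SAM 1.1, -0.08 with all 5 probes, was 0.18 with the authors' values and 0.17 when probes under the 25th percentile of signal were left out, which keeps 1 of the 5 probes (*hsp22* probe 15762). With the authors' values, which carry no offset, the upper 95% limit of a SAM 1.1 member reached 7.06-fold.

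Ratios near 0 changed sign. *hsp18f* probe 13216 was at 0.025 with plain subtraction, 0.0030 with no correction and 0.015 with the authors' values, and from -0.15 to 0.071 with a replicate left out. *HSP60-1* probe 1586 was at -0.021 in the low scan alone and from -0.014 to 0.12 with a replicate left out, and probe 5131 was from -0.0026 to 0.20 with a replicate left out, while the mean of all 3 *HSP60-1* probes of its chip was -0.011. *hsp70-5* probe 13706 was at 0.0094 in the high scan alone and from -0.14 to 5.3e-05 with a replicate left out, and *hsp101* probe 10658 ran from -0.0076 to 0.26 with a replicate left out. *hsp70-5* probe 5655 and *hsp18a* probe 10727 stayed below 0 in every alternative that measured them, from -0.33 to -0.23 and from -0.28 to -0.18, and the means over all probes of their genes on SAM 1.1 were both -0.11. The median of the 2 *hsp22* probes on SAM 1.1, 0.05 with all arrays, was 0.54 with the authors' values and -0.01 with plain subtraction. Most small heat shock spots lay near background, where the background method bears on ratios most, and 4 *hsp70-4* spots reached the limit of the scanner on 1 or 2 arrays.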
